A study of Mus musculus with 10 samples.

Results

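The genes described here are 10 components of insulin signaling and glucose uptake in skeletal muscle, measured by bulk RNA-seq of the gastrocnemius, a calf muscle, of diet-induced obese (DIO) mice. They were chosen as listed symbols, namely *Insr*, *Irs1*, *Irs2*, *Pik3r1*, *Akt1*, *Akt2*, *Tbc1d1*, *Tbc1d4*, *Slc2a4* and *Hk2*, out of 21098 genes in the deposited table. The deposited counts are given per transcript for the final stretch of its 3′ untranslated region (3′UTR), at most 500 bp long, and these stretches, called segments below, were summed per gene. The ASO group (5 libraries, LNA in the sample titles) came from mice that received RES-010, an antisense oligonucleotide against miR-22, subcutaneously at 10 mg/kg once a week for 14 weeks, and the CTRL group (5 libraries, VHL in the titles) came from mice given saline on the same schedule. All mice were wild-type (WT) males of the C57BL/6J strain (C57BL/6JBomTac in the study's methods), and both groups ate the high-fat diet D12492i, starting at 9 weeks of age and lasting 9 weeks before treatment. The labels give a weight over 40 g as the end point of that phase. In the list of weights that the study gives, all ASO mice but only some CTRL mice had reached it when treatment began, and the labels do not tie weights to libraries. The stated age at the end is 30 weeks, which is less than the sum of the age and periods above. No lean group and no scrambled oligonucleotide belong to these libraries, so effects shared by oligonucleotides of this kind cannot be told apart from those of miR-22 inhibition. Nothing in the labels ties a library to more than 1 mouse, and the p-values measure the spread between these libraries.

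Insulin binds its receptor on the muscle fiber, and the activated receptor phosphorylates the insulin receptor substrates, which recruit phosphoinositide 3-kinase (PI3K) to the membrane. The lipid made by PI3K brings Akt to the membrane, and active Akt phosphorylates the Rab GTPase-activating proteins TBC1D4 (AS160) and TBC1D1, which otherwise keep vesicles with the glucose transporter GLUT4 inside the cell. GLUT4 then reaches the surface and the sarcolemma-derived T-tubules, and hexokinase traps the glucose that enters. Most of this control acts on phosphorylation and traffic of proteins, which counts of mRNA do not measure.

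The oligonucleotide is directed at miR-22-3p, so the mature sequence is shown with the seed (bases 2 to 8) in capitals, together with the stretches of the 10 canonical 3′UTRs that contain the complement of the seed, GGCAGCT, in capitals. The mature sequence is that of RefSeq (GRCm38.p6), and the 3′UTRs are those of the canonical GENCODE M39 transcripts on GRCm39.
miR-22-3p: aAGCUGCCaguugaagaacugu
*Insr*: ctgtattgtgtGGCAGCTgggtgtggtgc
*Akt1*: gggcagcggctGGCAGCTccacgctcctc
*Tbc1d1*: atcaggtgtatGGCAGCTgacagcttttc
The search covered the transcript strand only, and 3 of the 10 genes had a match, each with 1. The *Insr* match lies at chr8:3201958-3201964 on the minus strand, 1036 bases before the end of a 3′UTR of 4747 bases. The *Akt1* match lies at chr12:112621108-112621114 on the minus strand, starting at base 18 of a 3′UTR of 877 bases. The *Tbc1d1* match lies at chr5:64508182-64508188 on the plus strand, 641 bases before the end of a 3′UTR of 1556 bases. None of the matches is followed by an A, which would extend it to 8 letters. Of 20828 canonical 3′UTRs, 14.1% contained the same 7 letters, and 17.9% of the 7764 3′UTRs of tested genes did. A match of letters is a description of sequence and does not show binding.

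The library totals were between 1606909 and 2116720 counts in CTRL and between 2239186 and 2632560 in ASO, so every ASO library was deeper than every CTRL library. Levels are given in CPM, the usual counts scaled to a common library size, here with TMM factors. Gene expression was compared with edgeR's quasi-likelihood test and Benjamini-Hochberg adjustment over 7813 genes, and a gene is said to be higher or lower only where its adjusted p was under 0.05. By that rule 11.8% of all tested genes were higher with the ASO and 17.4% were lower. As a check of the tissue, the markers of fast muscle fibers were the most abundant of the marker lists. Their summed level was 92606 to 148663 CPM in ASO and 45729 to 87330 CPM in CTRL (no overlap, exact permutation p = 0.0079). However, *Tnnt3* and *Mylpf* were at 0 in all libraries, and *Tnni2*, *Myh1* and *Myh2* had 4, 1 and 7 counts over all libraries. *Acta1* alone gave 59136 of the mean sum of 119272 CPM in ASO and 39783 of 68761 CPM in CTRL. It did not pass the edgeR test itself (adjusted p = 0.058), although DESeq2 and limma-voom called it higher. The sum thus rests on few genes. In bulk muscle, fewer cells of a type and less RNA per cell cannot be told apart. The libraries also differed in where their counts lay along transcripts. For 1575 genes the counts on the most downstream segment were divided by those on segments at least 1000 bp upstream, and the median log2 value in a library, its distal-over-proximal index, was 1.39 ± 0.206 (SD, n = 5) in ASO and 0.0587 ± 0.385 (SD, n = 5) in CTRL (exact permutation p = 0.0079). The lowest ASO library had 1.18 and the highest CTRL library had 0.489. Results below are therefore given with the position of the segments that carry them.

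Across the 10 genes, 9 passed the filter on low counts, and *Tbc1d1* did not. *Insr* and *Slc2a4* were higher in ASO, *Akt2* and *Tbc1d4* were lower, and *Irs1*, *Irs2*, *Pik3r1*, *Akt1* and *Hk2* did not pass the test. Thus 4 of 9 were called against 29.2% of all tested genes, and 2 of 9 (*Slc2a4* and *Tbc1d4*) had groups without overlap against 21.4% of all tested genes. The median log2 fold change of the 9 was 0.48, and that of all tested genes was -0.03. The largest change among the 9 was the lower level of *Tbc1d4*, 4.70-fold, and the most abundant of the 10, *Slc2a4*, was 1.42-fold higher.

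**Figure D1:**
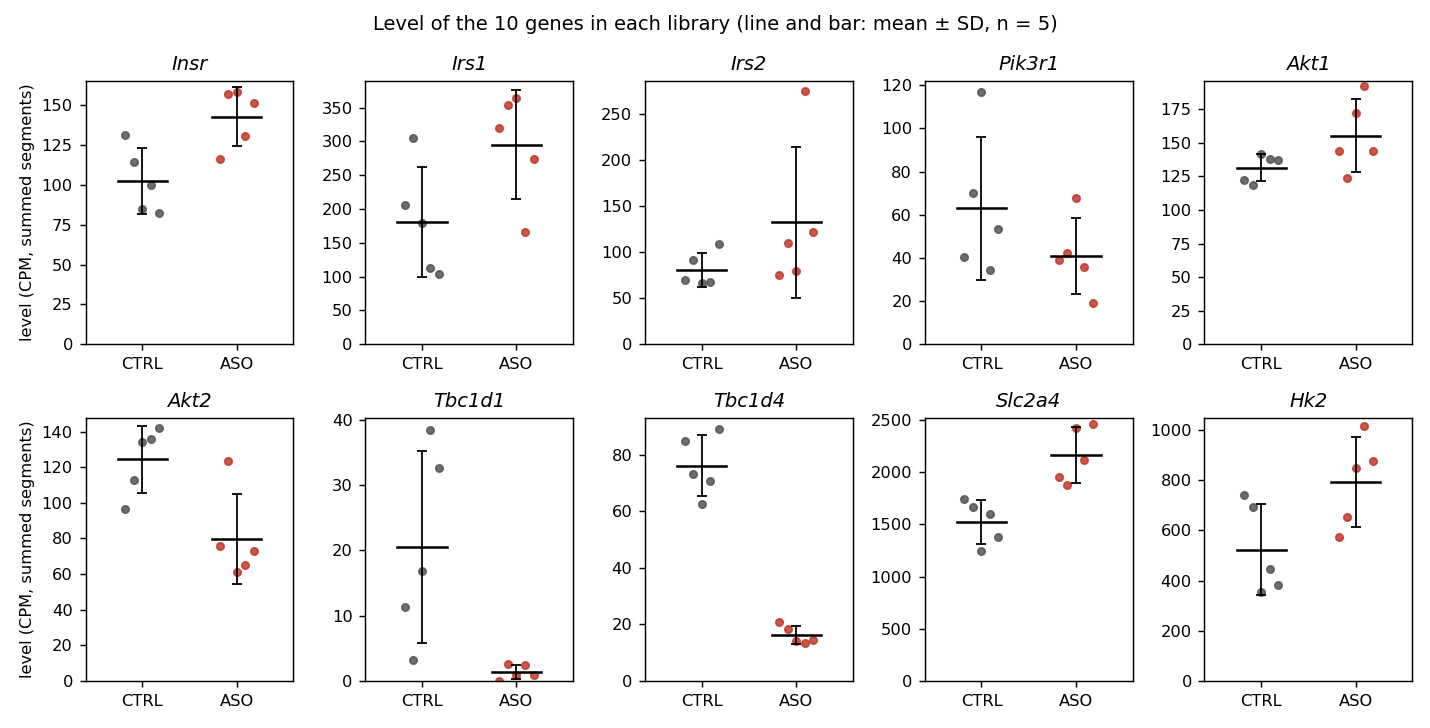
Level of each of the 10 genes in CPM (y axis, from 0, a scale of its own in each panel) in the 5 CTRL and 5 ASO libraries (points), with the mean and SD. The groups separate without overlap for *Slc2a4*, *Tbc1d4* and *Tbc1d1*, and they overlap for the other 7 genes.

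Levels of different genes can be compared over stretches of equal length. On the 500 bp segment that held most of each gene's counts on segments of that length, the CTRL level was 1503 ± 194 CPM for *Slc2a4* (SD, n = 5), which encodes GLUT4, and 519 ± 173 CPM for *Hk2*, which encodes the main hexokinase of muscle. *Irs1* followed with 179.5 ± 79.2 CPM. The ranges over libraries of these 3 genes did not overlap. Next in order were *Akt1* at 108 ± 9.48, *Insr* at 102 ± 19.5, *Irs2* at 80.2 ± 18.7, *Tbc1d4* at 61.5 ± 7.23, *Pik3r1* at 35.6 ± 18.2, *Tbc1d1* at 20.4 ± 14.7 and *Akt2* at 13.6 ± 3.22 CPM, and each of these overlapped its neighbor in the order. *Irs1* also overlapped *Akt1*. The segments ranked here held 20.9% of the counts of *Akt2*, 66.9% of *Pik3r1*, 81.1% of *Tbc1d4* and 88.2% of *Akt1*, and that of *Tbc1d1* is intronic, as described below.

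*Insr*, the receptor itself, was measured on 1 segment at its canonical 3′ end (chr8:3200922-3201421, minus strand, 3′UTR). Its level was 116, 157, 158, 131 and 152 CPM in ASO replicates 1 to 5 and 132, 114, 84.99, 99.7 and 82.6 CPM in CTRL replicates 1 to 5. Of the ASO libraries, 3 were above every CTRL library, and CTRL replicate 1 was above ASO replicates 1 and 4, so the groups overlapped. The mean was 143 ± 18.5 CPM in ASO and 103 ± 20.6 CPM in CTRL (SD, n = 5), a log2 fold change of 0.48 ± 0.16 (SE), and *Insr* passed the edgeR test with an adjusted p of 0.039. The call was lost under total-count scaling (0.30, adjusted p = 0.14), when only segments at canonical ends were counted (0.24, adjusted p = 0.28), without the filter (adjusted p = 0.062), at equal depth (adjusted p = 0.057) and in a fit blocked on replicate number (adjusted p = 0.084). It was also lost without any one of ASO replicates 2, 3 and 5 or CTRL replicates 3, 4 and 5 (0.40 to 0.47, adjusted p = 0.071 to 0.095).

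The receptor substrates showed higher means in ASO without passing the test. *Irs1*, the main adaptor of the receptor in muscle, had 319, 353, 364, 166 and 274 CPM in ASO and 207, 305, 179, 113 and 103 CPM in CTRL. ASO replicate 4 fell among the CTRL libraries and CTRL replicate 2 among the ASO libraries. The log2 fold change was 0.70 ± 0.30 (SE), with an edgeR adjusted p of 0.092, and *Irs1* passed the test without ASO replicate 4 (0.86, adjusted p = 0.042) or without CTRL replicate 2 (0.97, adjusted p = 0.021), and in the fit blocked on replicate number (0.76, adjusted p = 0.023). *Irs2*, its paralog, had 74.8, 109.6, 79.9, 274 and 122 CPM in ASO and 69.8, 90.9, 66.2, 67.9 and 108 CPM in CTRL. ASO replicate 4 was far above the other libraries, and 2 of the other 4 ASO libraries lay within the CTRL range. Its log2 fold change was 0.71 (edgeR adjusted p = 0.12), and 0.29 without that library. In ASO replicate 4, *Irs1* was the lowest of its group and *Irs2* the highest, and the log2 ratio of *Irs1* to *Irs2* was -0.72, against 1.17 to 2.18 in the other ASO libraries. That library also held the highest summed level of slow fiber markers, 7767 CPM against 28.9 to 2550 CPM in the other 9, and of Schwann cell markers, 483 CPM against 34.8 to 109.6 CPM, and their part in the *Irs2* level was not tested. The slow fiber marker *Tnnt1* was at 0 in all libraries, and 0 of the 6 tested slow fiber markers and 0 of the 3 tested Schwann cell markers were called by edgeR, DESeq2 or limma-voom or had an unadjusted p under 0.05. The ratio of *Irs1* to *Irs2* differed by 0.20 on the log2 scale between the groups (exact permutation p = 0.74).

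*Pik3r1* encodes p85α, the regulatory subunit of PI3K. Its level was 39.1, 42.5, 67.7, 35.9 and 19.3 CPM in ASO and 40.6, 69.9, 117, 34.2 and 53.4 CPM in CTRL, and the groups overlapped widely. The log2 fold change was -0.62 ± 0.36 (SE; edgeR adjusted p = 0.21), and -0.28 without CTRL replicate 3. This library had the highest *Pik3r1* level and the highest summed adipocyte markers, 14058 CPM against 731 to 3883 CPM in the other libraries, and the part of adipocyte RNA in it was not tested. Of the 7 tested adipocyte markers, 0 were called by edgeR, DESeq2 or limma-voom and 1 (*Cidec*) had an unadjusted edgeR p under 0.05. The gene's counts came from 2 segments of the same 3′UTR, which behaved differently. The segment at the end (chr13:101817071-101817570, minus strand, 66.9% of the counts) had 33.4 ± 16.3 CPM in ASO and 35.6 ± 18.2 CPM in CTRL, with a log2 fold change of -0.10. The segment 3101 bp upstream (chr13:101820172-101820671) had 10.7, 7.66, 11.6, 8.63 and 4.32 CPM in ASO and 8.82, 27.5, 52.9, 14.7 and 31.6 CPM in CTRL, so 4 of 5 CTRL libraries were above all ASO libraries. When each segment was fitted as a feature of its own with edgeR, 10652 segments were tested, 16.0% were higher and 24.7% lower, and the upstream *Pik3r1* segment was lower by a log2 fold change of -1.65 (adjusted p = 0.0080).

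The 2 Akt genes, which encode the kinases downstream of PI3K, went in different directions at the gene level. *Akt1*, the broadly expressed form, had 144, 124, 173, 192 and 144 CPM in ASO and 122, 119, 142, 138 and 137 CPM in CTRL, and 4 of the 5 ASO libraries were above the CTRL range. The log2 fold change of *Akt1* was 0.24 ± 0.14 (SE; edgeR adjusted p = 0.22). *Akt2*, the form tied most closely to insulin-stimulated glucose uptake, had 75.8, 124, 61.3, 65.1 and 73.1 CPM in ASO and 96.7, 113, 134, 136 and 142 CPM in CTRL. All ASO libraries except replicate 2 were below the CTRL range. The means of *Akt2* were 79.8 ± 25.2 and 124 ± 19.0 CPM (SD, n = 5), 1.56-fold lower in ASO, with a log2 fold change of -0.64 ± 0.20 (SE; edgeR adjusted p = 0.029). The call was lost without any one of ASO replicates 1, 3, 4 and 5 or CTRL replicates 4 and 5 (-0.61 to -0.52, adjusted p = 0.066 to 0.086). It was also lost without the filter on low counts. The log2 ratio of *Akt1* to *Akt2* was 0.99 ± 0.624 in ASO and 0.0924 ± 0.146 in CTRL (SD, n = 5; exact permutation p = 0.040, 0.16 after Benjamini-Hochberg adjustment over 4 ratios).

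The lower level of *Akt2* was carried by a very short stretch far from its end. A segment of 29 bp (chr7:27337567-27337595, plus strand), located 2667 bp upstream of the canonical end and inside the canonical 3′UTR, held 67.8% of the gene's counts. It had 42.7, 71.9, 27.1, 39.3 and 34.6 CPM in ASO and 76.6, 83.8, 104, 109 and 114 CPM in CTRL, without overlap, and a log2 fold change of -1.17 ± 0.24 (SE; edgeR over segments, adjusted p = 0.0018). The 500 bp segment at the end of *Akt2* (chr7:27339752-27340251), with 20.9% of the counts, moved the other way, with 25.3, 37.0, 28.0, 18.12 and 30.8 CPM in ASO and 10.2, 12.4, 15.8, 11.8 and 18.08 CPM in CTRL. Every ASO library was above every CTRL library, by a small margin between ASO replicate 4 and CTRL replicate 5. The end segment was higher by a log2 fold change of 1.03 ± 0.24 (SE; edgeR over segments, adjusted p = 0.0039). The direction of *Akt2* thus depended on which of its segments was read. The short segment is the start of the 3′UTR of 2696 bases, next to the coding sequence. Fragments counted on so short a stretch can extend beyond it.

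*Akt1* showed the same split on a smaller scale. Its end segment (chr12:112620255-112620754, minus strand, 88.2% of the counts) had 147 ± 28.2 CPM in ASO and 108 ± 9.48 CPM in CTRL and was higher by a log2 fold change of 0.45 (edgeR over segments, adjusted p = 0.038). A segment of 25 bp (chr12:112621107-112621131), 852 bp upstream, had 12.2 ± 3.99 CPM in ASO and 23.0 ± 3.41 CPM in CTRL, without overlap, and was lower by a log2 fold change of -0.90 (adjusted p = 0.0084). The 7 letters complementary to the miR-22 seed lie inside this short segment, which is likewise the start of the 3′UTR. Both *Akt1* segments overlap *Siva1*, a gene on the opposite strand, and the counting options the study lists include none for strand, so reads of the 2 genes may not be separated. Among 2272 genes with several tested segments, 281 (12.4%) had the most downstream segment higher and an upstream one lower, and 9 (0.396%) had the reverse. Of the 5 such genes among the 10, *Akt1* and *Akt2* had the first pattern.

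**Figure D2:**
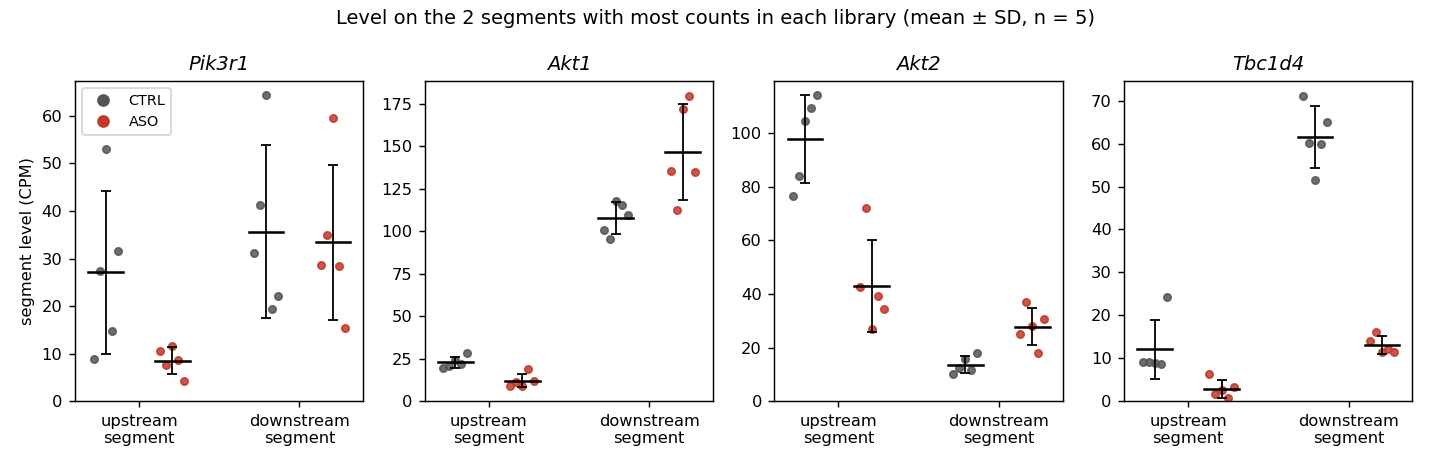
Level in CPM (y axis, from 0) on the 2 segments with most counts of *Pik3r1*, *Akt1*, *Akt2* and *Tbc1d4* in the 5 CTRL and 5 ASO libraries (points), with the mean and SD. For *Akt1* and *Akt2* the upstream segment is lower and the downstream segment higher in ASO, whereas both *Tbc1d4* segments are lower.

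*Tbc1d4* encodes AS160, the Akt substrate that restrains GLUT4 vesicles, and it gave the largest change among the tested genes of the list. Its level was 20.8, 18.3, 14.0, 13.4 and 14.6 CPM in ASO and 84.9, 73.2, 62.8, 70.8 and 89.3 CPM in CTRL. All ASO libraries were far below all CTRL libraries, and such a separation with the ASO group below was seen for 13.4% of all tested genes. The means were 16.2 ± 3.19 and 76.2 ± 10.8 CPM (SD, n = 5), with a log2 fold change of -2.23 ± 0.17 (SE; edgeR adjusted p = 7.6e-05). The call held in each alternative that gave *Tbc1d4* a value, with log2 fold changes from -2.41 to -2.15.

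These *Tbc1d4* counts did not come from the end of the transcript. The segment with 81.1% of them (chr14:101681159-101681658, minus strand) lies in the canonical 3′UTR, 2024 bp before the end, and had 13.1 ± 2.02 CPM in ASO and 61.5 ± 7.23 CPM in CTRL. A segment 21264 bp upstream (chr14:101700399-101700898), of which 122 bp are coding and 378 bp intronic in the canonical transcript, held 16.0% and was lower by a log2 fold change of -2.01 (edgeR over segments, adjusted p = 0.0043). The 2 segments nearest to the end overlap each other in all but 8 bp each and held 0 and 27 counts over the 10 libraries. The ratio between the main segment and the upstream one did not differ detectably between the groups, with a log2 difference of -0.15 (exact permutation p = 0.78). *Tbc1d4* therefore has no usable value at its annotated end in this table.

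*Tbc1d1*, the paralog of AS160 that responds to contraction as well as to insulin, was hardly measured. It had 0, 6, 2, 6 and 2 counts in ASO and 24, 7, 34, 65 and 58 counts in CTRL, or 16 against 188 in total. In CPM these were 0 to 2.55 in ASO and 3.26 to 38.4 in CTRL, without overlap (exact permutation p = 0.0079). For ASO replicate 1, a count of 0 allows a level of up to 1.45 CPM. The gene did not pass the filter, and edgeR without the filter gave a log2 fold change of -3.75 (adjusted p = 0.0011), where 9.54% of 14134 genes were lower. All these counts lie on 1 segment of a transcript marked for nonsense-mediated decay (chr5:64441583-64442082, plus strand), which is intronic in the canonical transcript and 66747 bp from its end. The 4 segments at the canonical end share all their bases with each other and held 0 counts in every library. The values thus describe an intronic stretch, and no level of the full-length *Tbc1d1* mRNA can be read from the table. The log2 ratio of *Tbc1d1* to *Tbc1d4* overlapped between the groups, with a difference of -1.48 (exact permutation p = 0.16, adjusted 0.32), and -0.82 without ASO replicate 1.

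*Slc2a4*, the insulin-responsive transporter, had 1949.7, 1877, 2426, 2120.0 and 2461 CPM in ASO and 1743, 1662, 1240.2, 1599 and 1377 CPM in CTRL. All ASO libraries were above all CTRL libraries, as was the case with the ASO group above for 7.97% of tested genes. The means were 2167 ± 268 and 1524 ± 209 CPM (SD, n = 5), with a log2 fold change of 0.51 ± 0.15 (SE; edgeR adjusted p = 0.022). Of its counts, 99.4% lay on the segment at its canonical end (chr11:69833369-69833868, minus strand, 3′UTR). The call was lost under total-count scaling (log2 fold change 0.33, adjusted p = 0.061) and when only segments at canonical ends were counted and scaled against each other (log2 fold change 0.27, adjusted p = 0.20), and also without CTRL replicate 5 (0.47, adjusted p = 0.062) and in a fit that blocked on replicate number (0.51, adjusted p = 0.079).

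*Hk2*, which phosphorylates the glucose that has entered, had 573, 652, 850.1, 1015 and 878 CPM in ASO and 740.0, 692, 355, 448 and 381 CPM in CTRL. The 3 highest libraries were of the ASO group, and CTRL replicates 1 and 2 lay above ASO replicates 1 and 2. The log2 fold change was 0.60 ± 0.24 (SE; edgeR adjusted p = 0.075). *Hk2* passed the test without CTRL replicate 1 (0.76, adjusted p = 0.031) or 2 (0.72, adjusted p = 0.048) and with DESeq2 (adjusted p = 0.044). Its only segment also passed in the edgeR fit over segments (0.65, adjusted p = 0.045). *Hk2* was measured on 1 segment (chr6:82702006-82702505, minus strand), 2266 bp before the end of the canonical M39 transcript. This segment carries the ID of that same transcript and is the most downstream one counted for the gene. The study names Gencode M25, and annotated ends can differ between releases. The summed fast fiber markers given above were higher in every ASO library as well. Of 5 tested markers, 3 were called higher by edgeR, and 4 by DESeq2 and by limma-voom. The part of these markers in the levels of *Slc2a4* and *Hk2* was not tested. The ratio of *Slc2a4* to *Hk2* differed by -0.13 on the log2 scale (exact permutation p = 0.46).

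**Figure D3:**
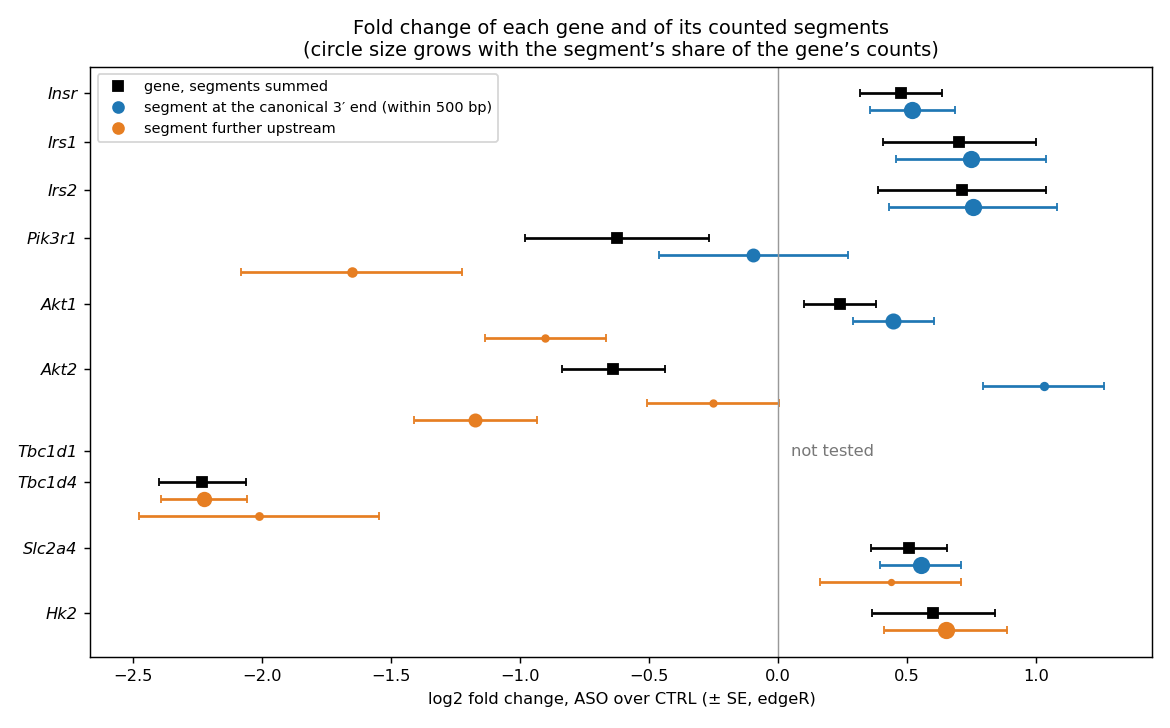
Log2 fold change of ASO over CTRL (x axis, ± SE, edgeR) for each gene with its segments summed (squares) and for each tested segment (circles, colored by position and sized by share of the gene's counts). For *Pik3r1*, *Akt1* and *Akt2* the segment at the canonical end lies to the right of the upstream segments, and *Tbc1d1* was not tested.

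The direction of the genes went with the position of their counts. All of *Insr*, *Irs1* and *Irs2*, 99.4% of *Slc2a4* and 88.2% of *Akt1* counts lay within 500 bp of the canonical end, and all 5 had positive log2 fold changes (0.24 to 0.71). The shares were 66.9% for *Pik3r1*, 20.9% for *Akt2* and 0 for *Tbc1d4*, and these 3 had negative log2 fold changes. *Hk2* had a share of 0 and a positive log2 fold change, but its segment is the most downstream one counted for the gene. Its share of 0 refers to the M39 end of the transcript, whereas the study names Gencode M25. The shares of all genes below use M39 ends too, and the part of this difference in them was not tested. Over all tested genes, 3706 had at least 80% of their counts at the canonical end, of which 17.8% were higher and 4.86% lower, with a median log2 fold change of 0.19. In contrast, of 3228 genes with under 50% there, 7.16% were higher and 31.5% lower, with a median of -0.29. The log2 fold change of *Tbc1d4*, -2.23, was lower than the median of its own class. That of *Akt1* was near the median of the first class. The class of *Tbc1d4* mixes segments of different kinds, and a closer background is given below.

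The segments were also described without regard to which annotated end is canonical. The last 50 bases of each were searched on the transcript strand for AATAAA or ATTAAA, the common polyadenylation signals. The segment of *Hk2* had AATAAA 28 bases before its end, and the leading segments of *Insr* (AATAAA), *Irs1* (ATTAAA), *Irs2* (AATAAA) and *Slc2a4* (ATTAAA) and the end segments of *Pik3r1*, *Akt1* and *Akt2* (all AATAAA) also had a signal. No signal was found at the short upstream segments of *Akt1* and *Akt2*, at the 2 leading segments of *Tbc1d4* or at the intronic segment of *Tbc1d1*. The upstream *Pik3r1* segment had AATAAA, so it had a signal and was lower in ASO. Among all segments with counts, 55.6% had a signal. Of 6034 tested segments with a signal, 22.3% were higher in ASO and 8.1% lower, and of 4618 without one, 7.69% were higher and 46.3% lower. Of 3369 tested segments without a signal and over 500 bp upstream of the canonical end, 3.89% were higher and 57.7% lower. Their median log2 fold change was -0.93. The 2 leading segments of *Tbc1d4*, at -2.23 and -2.01, are of this kind. The presence of the letters does not show that a transcript ends there.

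The balance along the transcript was also read within single genes, as the log2 ratio of the downstream to the upstream of the 2 segments with most counts, which does not depend on scaling between libraries. For *Akt2* it was -0.753, -0.954, 0.0462, -1.11 and -0.169 in ASO and -2.88, -2.74, -2.70, -3.19 and -2.64 in CTRL, a difference of 2.24 without overlap (exact permutation p = 0.0079, 0.020 after adjustment over 5 ratios). For *Akt1* the difference was 1.37, also without overlap (exact permutation p = 0.0079, adjusted 0.020). The smallest p that 5 against 5 libraries allow is 0.0079. For *Pik3r1* it was 1.37 (exact permutation p = 0.032, adjusted 0.053), and CTRL replicate 1, at 1.79, lay within the ASO range. For *Slc2a4* it was 0.14 (exact permutation p = 0.51).

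**Figure D4:**
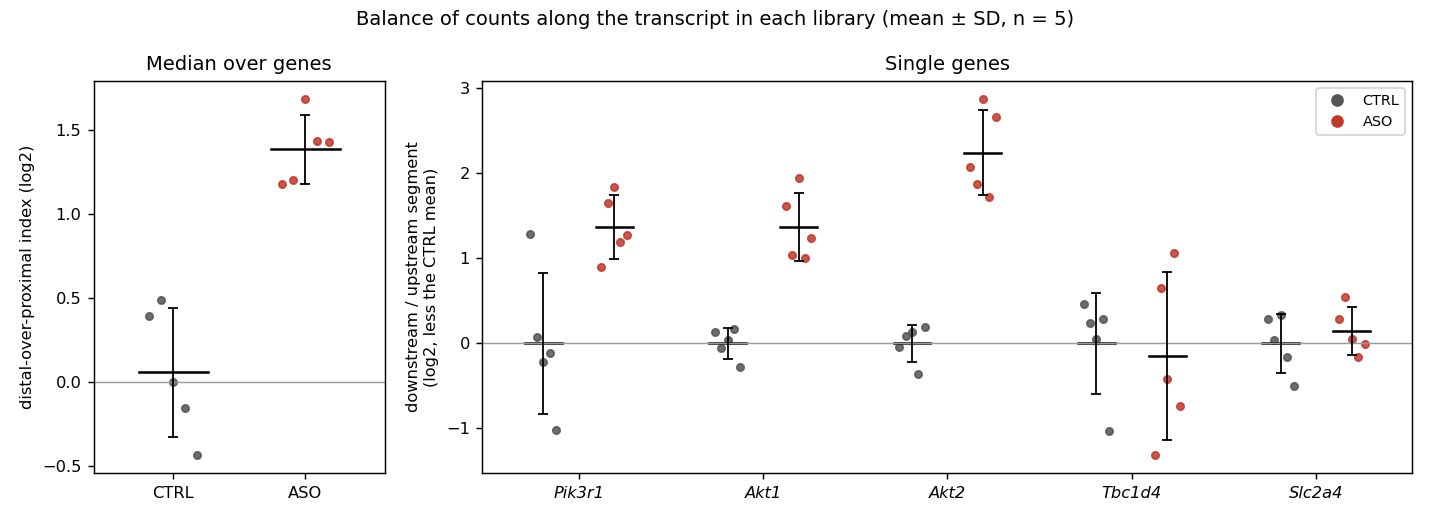
Left, the distal-over-proximal index (log2) in each library. Right, the log2 ratio of the downstream to the upstream segment of 5 genes, less its CTRL mean. Points are libraries, lines and bars the mean and SD. The ASO libraries lie above all CTRL libraries for the index, *Akt1* and *Akt2*, and they overlap for *Pik3r1*, *Tbc1d4* and *Slc2a4*.

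The CTRL libraries differed among themselves in the same respect. Their index was 0.396, 0.489, 0, -0.156 and -0.436 in replicates 1 to 5. Replicates 1 and 2, with the highest index, had the highest levels of *Insr*, *Irs1*, *Slc2a4* and *Hk2* in their group and the lowest of *Akt2*. Other genes did not follow this order. *Akt1* was lowest in replicates 1 and 2 (122 and 119 CPM), also on its end segment, and *Irs2* and *Tbc1d4* were highest in replicate 5. The part of this difference between libraries in the fold changes of the 10 genes was not tested, and the index and the treatment cannot be told apart across groups that do not overlap in it. RNA integrity values per library were not analysed here.

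Other genes of the pathway were taken from a list of 92 arranged by role, of which 65 passed the filter. With the ASO, 4 were higher and 14 lower, so 27.7% were called, near the 29.2% of all tested genes. Their median log2 fold change was -0.05. Of the 36 with at least 80% of counts at the canonical end, 3 were higher and 2 lower, and of the 22 with under 50%, 1 was higher and 10 were lower. *Pik3ca*, *Hk1* and *Rab8a* were among the 27 genes with too few counts for the test.

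Of 5 tested adaptors and receptor tyrosine kinases, 2 were lower. *Shc1*, an adaptor that links the receptor to the Ras pathway, was at 18.8 ± 5.87 CPM in ASO and 40.1 ± 10.3 CPM in CTRL (log2 fold change -1.09, edgeR adjusted p = 0.0068). *Grb2*, which binds Shc and IRS proteins, was lower by a log2 fold change of -0.58 (adjusted p = 0.017), but not past the threshold without ASO replicate 4 (adjusted p = 0.051) or 5 (adjusted p = 0.055). Both were measured upstream of the canonical end, by 928 and 605 bp.

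Of 8 tested inhibitors and phosphatases of the receptor, 1 was higher and 1 lower. *Ptpn1*, which encodes the phosphatase PTP1B that dephosphorylates the receptor, rose from 34.6 ± 4.22 to 46.4 ± 3.51 CPM without overlap (log2 fold change 0.42, edgeR adjusted p = 0.030), with all its counts at the end. This call was lost under total counts (0.24, adjusted p = 0.24), on canonical ends only (0.18, adjusted p = 0.44), in the fit blocked on replicate number (adjusted p = 0.076) and without CTRL replicate 1, 2 or 4 (adjusted p = 0.062 to 0.070). *Grb10*, an adaptor that inhibits the receptor, fell from 32.4 ± 12.4 to 5.97 ± 2.13 CPM (log2 fold change -2.43, adjusted p = 0.00039) on a segment 2596 bp upstream of the end. Of 8 tested PI3K subunits and phosphoinositide phosphatases, 0 passed the test with edgeR, DESeq2 or limma-voom and 2 (*Pik3r3* and *Inpp5k*) had an unadjusted edgeR p under 0.05. Their log2 fold changes were between -0.54 (*Pik3cd*) and 0.46 (*Pik3r3*).

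Of 8 tested kinases and Akt regulators, *Mtor*, the kinase of both mTOR complexes, was higher (73.2 ± 16.0 to 118 ± 28.1 CPM, log2 fold change 0.68, edgeR adjusted p = 0.021). Its call was lost under total counts (0.51, adjusted p = 0.062), on canonical ends only (0.48, adjusted p = 0.093), in the fit blocked on replicate number (adjusted p = 0.074) and without ASO replicate 5 or CTRL replicate 4 or 5 (adjusted p = 0.053 to 0.056). *Pdpk1*, which encodes PDK1, the kinase that phosphorylates the activation loop of Akt, was lower (89.3 ± 21.0 to 31.5 ± 9.05 CPM, log2 fold change -1.49, adjusted p = 0.00051). *Pdpk1* had 53.8% of its counts at the end, and that segment alone was lower too, by a log2 fold change of -0.71 (adjusted p = 0.033).

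Of 12 tested genes for Rab and Rac steps of GLUT4 traffic, 2 were higher and 4 lower. The 3 genes of the Ral GTPase-activating complex were all lower, with log2 fold changes of -2.06 for *Ralgapb*, -1.49 for *Ralgapa2* and -0.95 for *Ralgapa1* (edgeR adjusted p = 0.00022, 0.0047 and 0.00044). This complex holds RalA inactive and is, like AS160, a substrate of Akt. None of the 3 was measured mainly at the end of its canonical transcript, and *Rala* itself did not pass the test (log2 fold change -0.05). *Rab13*, a small GTPase that acts in GLUT4 traffic in muscle cells, was higher, with 51.1 ± 7.79 CPM in ASO and 30.6 ± 6.06 CPM in CTRL (log2 fold change 0.74, adjusted p = 0.0084). Its call held in 20 of 21 alternatives and was lost when only segments at canonical ends were counted (edgeR adjusted p = 0.10).

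Of 12 tested GLUT4 vesicle and fusion genes, 3 were lower. *Snap23*, a SNARE protein of vesicle fusion, was at 13.7 ± 3.79 CPM in ASO and 54.2 ± 17.6 CPM in CTRL (log2 fold change -1.97, edgeR adjusted p = 0.00034). *Clip1*, a microtubule plus-end protein, had a log2 fold change of -0.99 and *Aspscr1*, the vesicle tether TUG, one of -0.76. All 3 had none of their counts at the canonical end. The vesicle SNARE *Vamp2* and the vesicle aminopeptidase *Lnpep*, both measured at the end, had log2 fold changes of -0.25 and 0.36 and did not pass the test.

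Of 12 tested genes of glucose entry, trapping and storage, 3 were lower. *Gys1*, muscle glycogen synthase, was at 1352 ± 169.7 CPM in ASO and 2339 ± 361 CPM in CTRL (log2 fold change -0.79, edgeR adjusted p = 0.0028), but its end segment, with 57.8% of the counts, had a log2 fold change of 0.11 (adjusted p = 0.65). *Gyg1*, glycogenin, which primes glycogen synthesis, and *Txnip*, which restrains glucose uptake, had log2 fold changes of -0.63 and -0.61 (adjusted p = 0.037 and 0.040), with all their counts at the end and overlapping groups. The call of *Txnip* was lost in 14 of 21 alternatives, among them DESeq2 (adjusted p = 0.052) and limma-voom (adjusted p = 0.051) and each omission of ASO replicates 1, 3, 4 and 5 or CTRL replicates 1, 2 and 4 (adjusted p up to 0.11). That of *Gyg1* was lost in 9 of 21, with upper-quartile scaling, without the filter and without any one of ASO replicates 1, 4 and 5 or CTRL replicates 1, 2, 4 and 5 (adjusted p up to 0.089). These were the pathway genes called lower among those with at least 80% of counts at the end.

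**Figure D5:**
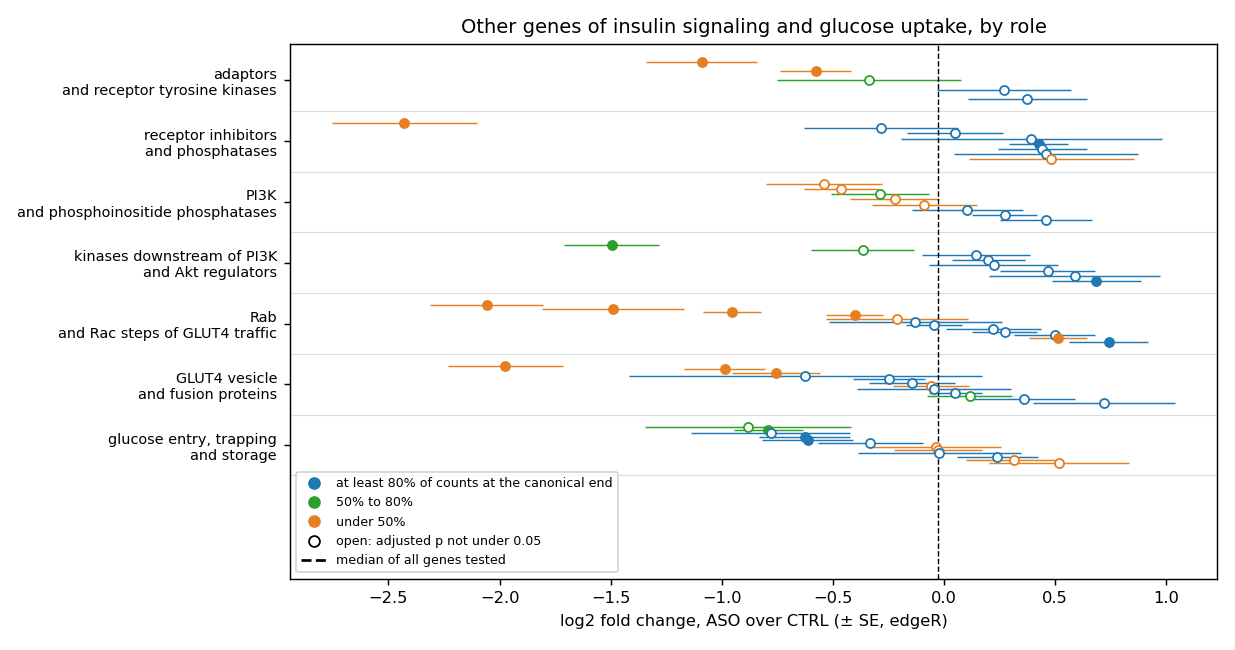
Log2 fold change of ASO over CTRL (x axis, ± SE, edgeR) for the 65 tested genes of the pathway list, grouped by role, colored by the share of counts at the canonical 3′ end, with filled points for genes past the threshold. The dashed line is the median of all tested genes at -0.03. Of the 14 genes called lower, 10 have under 50% of their counts at the end.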

How the data were processed

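Gastrocnemius RNA of 5 ASO and 5 CTRL mice was made into stranded mRNA libraries and sequenced as paired ends. The submitters' processing notes name FastQC, MultiQC, fastp, STAR, featureCounts (Subread), DESeq2 and the build GRCm39, without versions. The authors deposited raw counts per transcript segment, covering at most the final 500 bp of each 3′UTR, without normalization, and these counts move with where along the 3′UTR the fragments lie. The methods list options for exons and read pairs (-C among them) and none for strand or for fragments on several features, and by default featureCounts ignores strand and leaves such fragments out. The table also has 4 columns of other samples, which were not used.

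Of 52423 segments, 52361 were matched by transcript ID to GENCODE M39, inside whose transcripts 52360 lie, and summed into 21098 genes. The other 62 hold 0.0197% of the counts. The study names Gencode M25 for its counting, whereas the canonical ends used here are those of M39. Positions are 1-based on GRCm39. Gene counts went into edgeR 4.0.16 under R 4.3.3 (TMM, filterByExpr, quasi-likelihood, Benjamini-Hochberg, threshold 0.05). Single values, as log2 of CPM plus 0.5, and ratios, with 0.5 added to each count, were compared by exact permutation (two-sided, 252 labellings). Alternatives used DESeq2 1.42.0, limma-voom (limma 3.58.1), other scalings and filters, left-out libraries and other choices of segments. The remaining steps ran in Python 3.11.15 (scipy 1.17.1, pandas 2.3.3, numpy 2.4.6) and figures were drawn with matplotlib 3.10.9. With library totals of 1606909 to 2632560 counts, a level of 0 allows up to 3 counts, and this limit covers counting error only.

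The 10 genes and the lists were chosen with earlier results of these data known. All 10 are named, and of the pathway list up to 4 genes past the threshold per role in order of adjusted p, so *Rac1* and *Rab14* appear in counts only. Other genes named (*Pik3ca*, *Hk1*, *Rab8a*, *Pik3cd*, *Pik3r3*, *Inpp5k*, *Rala*, *Vamp2*, *Lnpep* and *Siva1*) were chosen after their values were seen, as were the segment fits, the segment ratios and the polyadenylation signals. On simulated counts for the ASO against CTRL comparison over 21098 genes, edgeR recovered 150 of 198 changed genes among 7895 tested, with 9 false calls. DESeq2 recovered 162 of 200 with 31 false calls, and limma-voom 147 of 198 with 9. The simulation changed 200 genes, in equal numbers up and down, and had no group difference in position along transcripts. Its counts of false calls therefore describe that setting and cannot be carried over to these libraries.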

Additional observations from a re-analysis of the deposited data

Results flagged for a closer look

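In 4 of 70 groups of 5 libraries examined, 1 library stood apart from the other 4 by Dixon's test, which chance does in about 1 of 20 groups. *Irs2* was at 274 CPM in ASO replicate 4, against 74.8 to 122 CPM in the other ASO libraries. *Akt2* was at 124 CPM in ASO replicate 2, against 61.3 to 75.8 CPM in the others, and without this library the log2 fold change of *Akt2* was -0.83 (edgeR adjusted p = 0.0028). *Grb2* was at 99.98 CPM in CTRL replicate 1, against 119 to 126 CPM in the other CTRL libraries. The log2 ratio of the main *Tbc1d4* segment to the one upstream was 1.41 in CTRL replicate 5, against 2.50 to 2.905 in the other CTRL libraries.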

How the results depend on the processing

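Of 537 log2 fold changes of single genes recomputed under alternatives, 462 kept their direction and their side of the threshold, 65 kept the direction but no longer passed, 7 newly passed and 3 reversed. The 3 were all of *Akt2*, at 0.74 (adjusted p = 0.066) on the most distal segment only, 0.74 (adjusted p = 0.068) on segments at canonical ends only and 1.03 (adjusted p = 0.0039) for its own end segment. Fits of a gene's own end segment entered this count for the 10 genes only. Outside it, the end segment of *Gys1* had a log2 fold change of 0.11, against -0.79 for the gene. The *Hk2* segment, which is not at the M39 end, was outside it too, at 0.65 (edgeR over segments, adjusted p = 0.045). Total counts shifted the median of all genes by -0.18, the most distal segment by -0.24 and canonical ends by -0.24. Genes called higher, 920 in the report, were 528 under total counts, 318 on the most distal segment and 252 on canonical ends. Genes called lower, 1363 in the report, were 503 and 364 on the latter 2, where fewer genes (5527 and 5142) were tested. Of the 10 genes, 2 were called higher in the report, 0 under total counts, on the most distal segment and on canonical ends, 1 without the filter, 1 when drawn down to the smallest library and 0 to 4 without single libraries (4 without CTRL replicate 2, 0 without CTRL replicate 5). The number called lower, 2, was 0 on the most distal segment and on canonical ends, where *Tbc1d4* has no value, and 1 to 3 without single libraries (1 without CTRL replicate 4 or 5). Of the pathway list, 4 were called higher in the report, 1 under total counts, 1 on the most distal segment, 1 on canonical ends and 2 to 6 without single libraries (2 without CTRL replicate 4). The 14 called lower were 7 on the most distal segment and 3 on canonical ends. The log2 ratio of *Akt1* to *Akt2* reversed to -0.58 on the most distal segment. Without single libraries that of *Irs1* to *Irs2* ranged from -0.084 to 0.70, negative without ASO replicate 3 (-0.02) or CTRL replicate 5 (-0.084), that of the *Pik3r1* segments from 1.11 to 1.69, past the threshold without CTRL replicate 1 (1.69, adjusted exact permutation p = 0.026), and that of the *Tbc1d4* segments from -0.45 to 0.14, positive without ASO replicate 1 (0.14). Unless named above, the cause of a change was not tested.

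Libraries with the same replicate number did not resemble each other closely over all genes. The correlations of same-numbered deviations from the group mean were -0.43, 0.057, 0.052, 0.060 and 0.16, and 0 of 5 ASO libraries were closest to their own number. These values cannot show whether same-numbered libraries were handled together. With the replicate number as a block, 662 genes were higher and 1172 lower, 1 of the 10 genes (*Irs1*, adjusted p = 0.023, while *Insr* and *Slc2a4* lost their calls) and 2 pathway genes (*Ptpn1* and *Mtor* lost theirs) were higher. The segment ratios were 1.37 for *Akt1* and 2.24 for *Akt2* within pairs, with an adjusted p of 0.16 by the exact sign-flip permutation test, which cannot go below 0.0625 with 5 pairs before adjustment. *Tbc1d1* had 204 counts in all, none of them on its end segments.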
